A study of Mus musculus with 19 samples.

Results

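The germinal centre core genes described here are Bcl6, Mef2b, Mef2c, Mybl1, Lmo2, Gcsam, Nuggc and Neil1. They were taken by name from 4 deposited expression tables of sorted mouse B lineage cells and make up 8 of the 22101 gene names in any table, of which 15235 stand in all 4. The 8 were chosen by their values in the knockout-labelled and wild-type-labelled germinal centre libraries, so that difference is described here without a test. All 8 are listed in every table, and all 8 averaged at least 10 counts per 1000000 assigned reads (CPM) in the germinal centre table, while 3 did so in the naive table. Of the 8, Bcl6, Gcsam, Mybl1, Nuggc and Neil1 reached that level in the germinal centre table only through the knockout-labelled group.

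Germinal centres are sites in lymphoid follicles where activated B cells divide, mutate their antibody genes and are selected for affinity. BCL6 is the transcriptional repressor without which B cells do not form a germinal centre. It holds down genes of DNA damage sensing, cell cycle arrest, exit from the follicle and plasma cell differentiation. MEF2B, best studied in human B cells, activates BCL6 transcription, and the other members mark or act in the same B cell stage.

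All libraries came from mice given an intraperitoneal injection of washed sheep red blood cells, and cells were sorted on day 28. Germinal centre B cells were sorted from spleen as CD95+ GL7+ cells, with 4 libraries labelled Pik3cg knockout and 3 labelled wild type. Naive B cells were sorted from spleen as CD3- B220+ IgD+ cells, with 3 knockout-labelled libraries and 3 labelled wild type. CD138+ antibody-secreting cells, all labelled wild type, were taken from spleen and bone marrow (n = 3 each). Pik3cg encodes the catalytic subunit of phosphoinositide 3-kinase gamma, and the series asks what its loss does to B cell responses. The labels do not say which part of the gene was deleted, in which cells, or whether a library holds 1 mouse. The sources used here give no strain, sex or age. The 9 columns of naive and antibody-secreting cells labelled wild type are headed HET in the tables, so wild-type and heterozygous mice cannot be told apart there.

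Depth was 10.2 to 21.6 M (1 M is 1000000) assigned reads a library. Pik3cg had 66.0, 52.8, 6.55 and 9.04 CPM in knockout-labelled and 56.5, 34.3 and 19.4 CPM in wild-type-labelled germinal centre libraries, a log2 fold change of −0.60 that did not pass (limma adjusted p = 0.696). In naive B cells it had 94.98, 126.8 and 97.7 CPM in knockout-labelled libraries and 114.5, 110.1 and 110.6 CPM in wild-type-labelled ones (log2 fold change −0.08, 95% interval −0.43 to 0.27, limma adjusted p = 0.935). From these values it cannot be told whether a library carries the genotype on its label, and genotypes are written as labelled. Germinal centre library 1 labelled knockout had 829.7 CPM of the haemoglobin gene Hba-a1, against 7.75 to 86.7 CPM in the other knockout-labelled libraries and 0 in wild-type-labelled ones. Germinal centre library 3 labelled wild type had 0 CPM of Xist and 159 CPM of the Y-linked Ddx3y, which was at 0 in the other 6 germinal centre libraries. Values without these 2 libraries are given beside the results that rest on them. Fas, which encodes the CD95 of the gate, averaged 249.7 CPM ± 31.0 in knockout-labelled germinal centre libraries and 213 CPM ± 14.6 in wild-type-labelled ones (SD, n = 4 and 3), with overlapping ranges. It was under 15 CPM in all 6 naive libraries.

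Across the 8 members, 7 were higher and 1, Mef2c, was lower in every germinal centre knockout-labelled library than in every wild-type-labelled library. Of the 8522 genes tested in that table, 27.4% had groups that did not overlap, 15.6% higher and 11.7% lower. The members were chosen with this contrast known, so nothing is read from the count of 8.

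Bcl6 (ENSMUSG00000022508, mm10 chromosome 16, 23965052 to 23988852, minus strand) encodes the repressor itself. The 4 knockout-labelled germinal centre libraries held 45.5, 34.9, 26.3 and 29.3 CPM, or 791, 630, 434 and 558 reads. The 3 wild-type-labelled libraries had 1.62, 1.05 and 0.408 CPM, or 35, 21 and 8 reads. The lowest knockout-labelled library was far above the highest labelled wild type. The ratio of means was 33.2, and the log2 fold change on the log2(CPM + 1) scale was 4.13 (SE 0.65, 95% interval 2.66 to 5.60). Without the haemoglobin-high and the Ddx3y-positive library it was 3.74. In naive B cells Bcl6 had 4.40, 2.40 and 12.1 CPM in knockout-labelled libraries and 11.3, 8.83 and 7.47 CPM in wild-type-labelled ones. The naive groups overlapped, and the knockout-labelled group held both the highest and the lowest of the 6 libraries. All 3 wild-type-labelled germinal centre libraries lay below all 6 naive libraries, although these levels come from separately made tables and were not tested against each other. In antibody-secreting cells Bcl6 was listed at 0 in 2 of 3 spleen libraries and 2 of 3 marrow libraries, with 0.792 CPM as the highest value.

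The sequences before the annotated starts of Bcl6, Gcsam and Mef2b are shown because these genes differed together and because BCL6 and MEF2 factors are known to act on the Bcl6 gene. Windows of 250 bases before each start were taken from RefSeq on GRCm38.p6, in which 5 of the 8 members matched with 8 windows. Mybl1, Lmo2 and Nuggc had none. Both strands were searched for a BCL6 motif (TTCCTNGAA), a MEF2 motif (CTA and TAG with NNNN between them), the octamer (ATGCAAAT) and an E-box (CAGNTG). Capitals mark matches. The first Bcl6 window, chr16:23988853-23989102, minus strand, held no match, and the second, chr16:23981284-23981533, minus strand, held 1 BCL6 motif match, TTCCTGGAA, 168 bases before the start.
Bcl6 window 1: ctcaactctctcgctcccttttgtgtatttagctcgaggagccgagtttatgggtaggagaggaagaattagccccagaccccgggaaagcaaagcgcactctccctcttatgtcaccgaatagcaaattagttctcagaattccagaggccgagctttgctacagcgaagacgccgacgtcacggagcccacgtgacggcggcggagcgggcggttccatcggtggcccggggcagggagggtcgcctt
Bcl6 window 2: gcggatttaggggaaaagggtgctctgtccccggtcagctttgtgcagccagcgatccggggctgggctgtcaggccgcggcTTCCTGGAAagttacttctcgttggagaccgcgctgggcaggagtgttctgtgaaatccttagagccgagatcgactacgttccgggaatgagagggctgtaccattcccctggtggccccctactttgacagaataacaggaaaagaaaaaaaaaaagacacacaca
Of 32851 RefSeq promoter windows of the same length, 1.31% held the BCL6 motif, 3.20% the MEF2 motif, 1.60% the octamer and 44.8% the E-box. A match describes letters in a window and is no evidence of binding.

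Mef2b (ENSMUSG00000079033, chromosome 8, 70139711 to 70167488, plus strand) encodes a MADS-box transcription factor that activates BCL6 in human germinal centre B cells. It had 301, 92.7, 127.7 and 207 CPM in knockout-labelled germinal centre libraries and 26.0, 9.93 and 37.8 CPM in wild-type-labelled ones. The groups did not overlap, but the libraries within each group differed more than 3-fold. The ratio of means was 7.41 and the log2 fold change 2.88 (SE 0.52, 95% interval 1.71 to 4.05). Naive B cells had 9.19, 9.85 and 4.94 CPM in knockout-labelled libraries and 1.45, 1.89 and 3.52 CPM in wild-type-labelled libraries. All 3 knockout-labelled naive libraries were above all 3 labelled wild type. Antibody-secreting cells held 2.19 to 4.96 CPM in spleen and 2.18 to 4.37 CPM in marrow. Mef2b overlaps Borcs8 on the same strand, so how the authors' counting split shared reads is uncertain. Its window, chr8:70152511-70152760, plus strand, held an octamer match 85 bases and an E-box match 28 bases before the start.
Mef2b: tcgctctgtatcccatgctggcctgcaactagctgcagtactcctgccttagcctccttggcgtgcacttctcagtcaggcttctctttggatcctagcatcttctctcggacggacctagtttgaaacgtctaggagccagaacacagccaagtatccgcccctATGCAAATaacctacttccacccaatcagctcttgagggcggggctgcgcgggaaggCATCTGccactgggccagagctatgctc

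Mef2c (ENSMUSG00000005583, chromosome 13, 83504034 to 83667080, plus strand) encodes the related factor that serves B cell development and proliferation after antigen receptor signals. It stood at 1058, 777, 1081 and 913 CPM in knockout-labelled germinal centre libraries and at 1758, 1527 and 1551 CPM in wild-type-labelled ones. This was the only member whose knockout-labelled libraries all lay below wild-type-labelled ones. Its log2 fold change was −0.76 (SE 0.14, 95% interval −1.09 to −0.44), a ratio of means of 0.594. In naive B cells Mef2c averaged 1294 CPM ± 114 in knockout-labelled libraries and 1212 CPM ± 173 in wild-type-labelled ones (SD, n = 3 each), with overlapping ranges. It was present in every group and lowest in antibody-secreting cells, at 184 to 285 CPM in spleen and 106 to 129.7 CPM in marrow. Spleen and marrow did not overlap.

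Mybl1 (ENSMUSG00000025912, chromosome 1, 9667415 to 9700209, minus strand) encodes A-Myb, a transcription factor of dividing germinal centre B cells. It had 39.5, 48.5, 37.7 and 17.0 CPM in knockout-labelled germinal centre libraries and 1.48, 0.998 and 1.17 CPM, or 32, 20 and 23 reads, in wild-type-labelled ones. The knockout-labelled library with the least Mybl1 was still more than 10 times any labelled wild type. Its log2 fold change was 3.96 (SE 0.66, 95% interval 2.46 to 5.46), with a ratio of means of 29.3. Mybl1 was listed at 0 in all 3 knockout-labelled naive libraries and at 0.153, 0 and 2.37 CPM in wild-type-labelled ones. All 6 antibody-secreting cell libraries were at 0, where 3 reads would have been 0.170 to 0.243 CPM.

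Lmo2 (ENSMUSG00000032698, chromosome 2, 103957986 to 103981878, plus strand) encodes a LIM-domain adaptor of transcription complexes used as a germinal centre marker in human lymphoma. It had 31.3, 39.0, 49.8 and 46.9 CPM in knockout-labelled germinal centre libraries and 18.9, 7.94 and 12.3 CPM in wild-type-labelled ones. The groups did not overlap, and on the log2 scale the difference was the smallest of the 7 higher members. Its log2 fold change was 1.66 (SE 0.45, 95% interval 0.63 to 2.69). Lmo2 was highest in naive B cells, with 96.0, 90.6 and 70.4 CPM in knockout-labelled libraries and 76.7, 73.0 and 117.9 CPM in wild-type-labelled ones. Every naive library exceeded every germinal centre library, across separate tables. Antibody-secreting cells held 0.897 to 2.90 CPM. 4931422A03Rik overlaps Lmo2 on the opposite strand, and the strand setting of the counting is not given in the sources used here. The same holds for Gm37419 opposite Bcl6.

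Gcsam (ENSMUSG00000022659, chromosome 16, 45610380 to 45622867, plus strand) encodes an adaptor that tunes B cell receptor signalling and cell motility. It stood at 344, 351, 412 and 562 CPM in knockout-labelled germinal centre libraries and was listed at 0 in all 3 labelled wild type. Against a floor of 3 reads per library it was at least 2835-fold higher. The log2 fold change of 8.68 depends on the added 1 CPM. Naive B cells had 5.77, 16.8 and 6.66 CPM in knockout-labelled libraries and 2.68, 2.23 and 4.40 CPM in wild-type-labelled ones. The naive groups did not overlap. Antibody-secreting cells had 7.11 to 12.6 CPM in spleen and 10.5 to 14.6 CPM in marrow. The wild-type-labelled germinal centre libraries were thus the only 3 of the 19 libraries in which no Gcsam was listed. The 190 bases of its window that lie outside annotated exons, chr16:45610190-45610379, plus strand, follow, and the whole window held none of the 4 motifs.
Gcsam: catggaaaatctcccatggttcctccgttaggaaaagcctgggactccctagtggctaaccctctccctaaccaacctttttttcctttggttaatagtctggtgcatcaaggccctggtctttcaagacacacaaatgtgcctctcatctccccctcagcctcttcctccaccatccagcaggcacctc

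Nuggc (ENSMUSG00000061356, chromosome 14, 65598546 to 65648531, plus strand) encodes a nuclear GTPase of germinal centre B cells that in mice limits DNA damage. It had 211.9, 172.7, 169.9 and 203 CPM in knockout-labelled germinal centre libraries and 0, 3.14 and 0 CPM in wild-type-labelled ones. All Nuggc reads of the wild-type-labelled group, 63 in number, came from library 2. The log2 fold change was 6.88 (SE 0.58, 95% interval 5.56 to 8.20). Naive libraries had 3.03, 0 and 0.940 CPM when labelled knockout and 0.306, 0.857 and 0 CPM when labelled wild type. Antibody-secreting cells stood above the naive libraries, across separate tables, at 6.35 to 9.15 CPM in spleen and 6.16 to 9.67 CPM in marrow.

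Neil1 (ENSMUSG00000032298, chromosome 9, 57142800 to 57148305, minus strand) encodes a glycosylase that removes oxidised bases in base excision repair. It had 121.5, 59.0, 45.5 and 130.4 CPM in knockout-labelled germinal centre libraries and 1.85, 8.28 and 6.47 CPM in wild-type-labelled ones. The knockout-labelled libraries fell into a higher and a lower pair, and all were above wild-type-labelled ones. The log2 fold change was 3.81 (SE 0.60, 95% interval 2.46 to 5.16), a ratio of means of 16.1. Naive libraries held 14.8, 19.2 and 12.9 CPM when labelled knockout and 24.4, 15.9 and 19.3 CPM when labelled wild type. Antibody-secreting cells had 10.2 to 16.6 CPM in spleen and 8.12 to 9.16 CPM in marrow. Its RefSeq window held 5 E-box matches, at 214, 159, 138, 65 and 53 bases before the start.

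**Figure D1:**
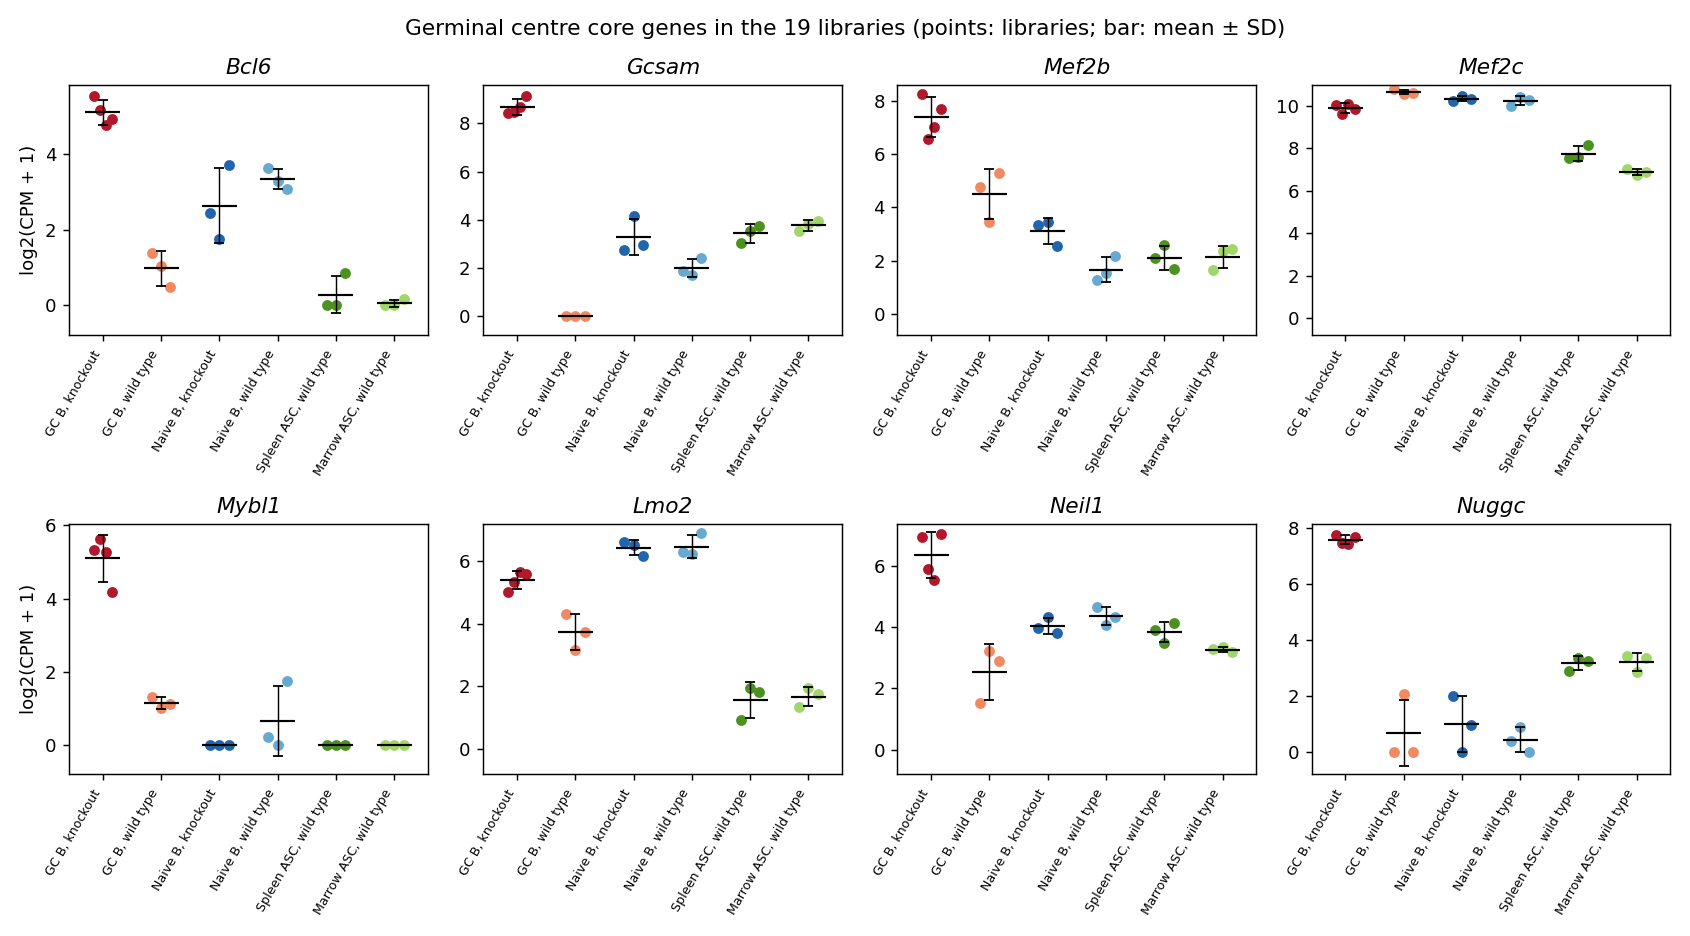
Expression of the 8 genes as log2(CPM + 1) in the 19 libraries, with a panel per gene. Points are libraries and bars the mean ± SD of the 6 groups. Gcsam and Nuggc are high in the 4 knockout-labelled germinal centre libraries, Gcsam is at 0 in the 3 labelled wild type, Mef2c is lower in the knockout-labelled libraries, and Lmo2 is highest in naive B cells.

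The order of the group means differed between members. In 6 of the 8, knockout-labelled germinal centre B cells were highest and did not overlap the next group, the exceptions being Mef2c and Lmo2. The members were chosen with the germinal centre contrast known, and the share of all genes with this order was not computed. Nothing is therefore read from the count of 6. Below them, Bcl6 and Neil1 came next in naive B cells, Mef2b and Mybl1 in wild-type-labelled germinal centre B cells, and Gcsam and Nuggc in marrow antibody-secreting cells. For Gcsam the marrow, spleen and naive labelled-knockout groups did not differ beyond their spread, since each overlapped its neighbour. Wild-type-labelled germinal centre B cells were the lowest group for Gcsam and Neil1, although for Neil1 they overlapped marrow antibody-secreting cells. For Mef2c the order was germinal centre labelled wild type, naive labelled knockout, naive labelled wild type, germinal centre labelled knockout, spleen and marrow, with the naive groups overlapping each other and, of these, the wild-type-labelled one alone overlapping the germinal centre labelled-knockout group. Per kilobase of exon in GENCODE M21, the highest mean in knockout-labelled germinal centre B cells was that of Mef2b at 129.7 CPM per kb, then Gcsam at 122, Nuggc at 66.8, Mef2c at 60.9, Neil1 at 47.6, Lmo2 at 19.3, Mybl1 at 6.60 and Bcl6 at 5.08 CPM per kb. Without the haemoglobin-high library 1, left out after seeing the data, Gcsam came before Mef2b, at 129 and 101 CPM per kb, so the order of these 2 rests on that library. In wild-type-labelled ones, Mef2c had 102.6 CPM per kb, and Mef2b was next at 17.5 CPM per kb. The sources used here do not name the authors' annotation, and these per-length levels rest on that gene model.

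**Figure D2:**
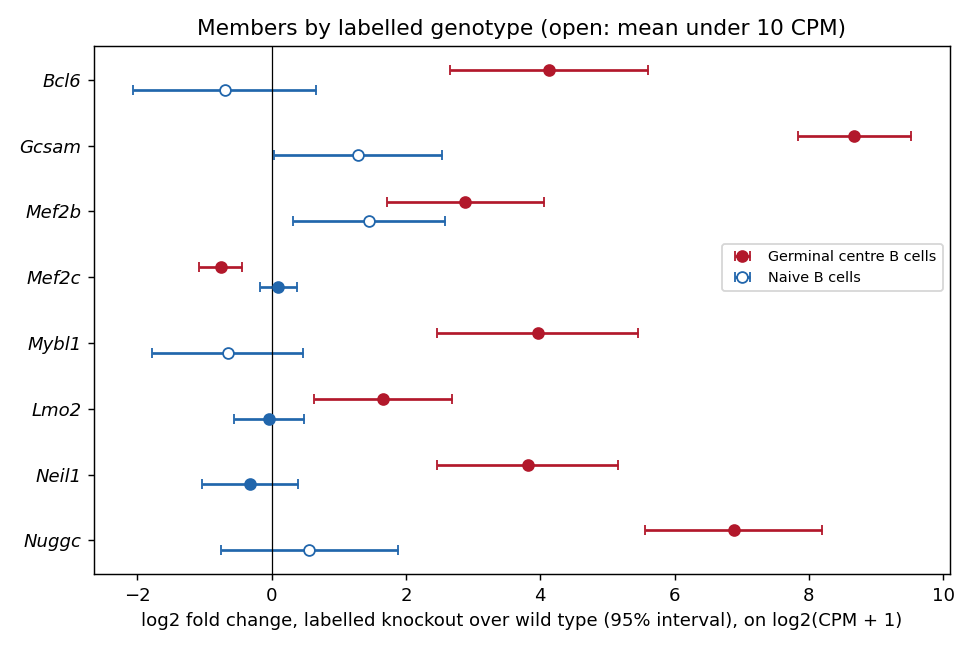
Log2 fold change of knockout-labelled over wild-type-labelled libraries with its 95% interval for the 8 genes, in germinal centre B cells (red) and naive B cells (blue), on the log2(CPM + 1) scale. Open points had a mean under 10 CPM. In germinal centre B cells 7 genes lie right of 0 and Mef2c lies left of it at −0.76, while in naive B cells the intervals of Mef2c, Lmo2 and Neil1 include 0 and those of Gcsam (0.03 to 2.54) and Mef2b (0.32 to 2.58), neither passing after adjustment, lie above it.

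Leaving out the haemoglobin-high and the Ddx3y-positive library together changed the direction of no member. The log2 fold change between the germinal centre groups was then 8.76 for Gcsam, 6.49 for Nuggc, 3.87 for Mybl1, 3.80 for Neil1, 2.98 for Mef2b, 1.79 for Lmo2 and −0.84 for Mef2c.

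The naive comparison, which sets the labelled genotypes against each other in IgD+ B cells, called no gene. Of 8832 genes, 0% passed an adjusted p of 0.05 in limma, and 587 (6.65%) had an unadjusted p under 0.05. Of the 3 members that reached 10 CPM, none passed. Mef2c had a log2 fold change of 0.10 (SE 0.12, 95% interval −0.17 to 0.38, limma adjusted p = 0.884). Lmo2 had −0.04 (SE 0.22, 95% interval −0.56 to 0.49, limma adjusted p = 0.980), and Neil1 had −0.32 (SE 0.31, 95% interval −1.04 to 0.39, limma adjusted p = 0.847). The difference between the cell types was not tested.

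The other 5 members were too low in naive B cells for the main test. With a minimum of 1 CPM, Gcsam had a log2 fold change of 1.28 (limma adjusted p = 0.797), Mef2b of 1.45 (limma adjusted p = 0.761) and Bcl6 of −0.70 (limma adjusted p = 0.870). The unadjusted 95% intervals, from a fit of all genes without a filter, were 0.03 to 2.54 for Gcsam and 0.32 to 2.58 for Mef2b. Gcsam and Mef2b were the 2 members whose naive groups did not overlap, both higher in knockout-labelled libraries, with ratios of means of 3.14 and 3.50. Among 13955 genes of at least 1 CPM, 12.5% had naive groups that did not overlap, with 5.61% of genes higher and 6.86% lower in knockout-labelled libraries. The two-sided exact permutation p was 0.1 for Gcsam and for Mef2b, the smallest that 3 against 3 libraries can give. For the others the exact permutation p was 0.5 for Bcl6, 0.6 for Mef2c, 0.4 for Mybl1, 0.8 for Lmo2, 0.2 for Neil1 and 0.5 for Nuggc. Of the marker sums, those of endothelial and stromal cells, 2 of 5 markers listed, did not overlap between the naive groups. They stood at 239 to 248 CPM in knockout-labelled libraries and 153 to 209.5 CPM in wild-type-labelled ones. Cdh5 was at 0 in 2 of 3 libraries of each naive group and at most 0.967 CPM. These sums thus came almost wholly from the other listed marker, and their part in the members' naive values was not tested. T cell markers overlapped there, at 76.9 to 102 CPM in knockout-labelled libraries and 65.2 to 111 CPM in wild-type-labelled ones.

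The genes most like Bcl6 and Gcsam in level over the 19 libraries were ranked by Pearson correlation of log2(CPM + 1), as a description, since libraries of a group share their cells and the tables were made separately. For Bcl6, among 7069 genes, these were Fyb (r = 0.962), Ms4a4b (0.956), Tyrobp (0.946), Slfn1 (0.941) and Hmces (0.939). Fyb and Ms4a4b are known from T cells, Tyrobp encodes a signalling adaptor of myeloid and natural killer cells, and Hmces encodes a protein that shields abasic sites in DNA. Ms4a4b averaged 261.2 CPM in knockout-labelled germinal centre libraries, 1.21 CPM in wild-type-labelled ones, 16.9 CPM in knockout-labelled naive libraries and 18.7 CPM in wild-type-labelled naive libraries. None of the 5 is a member, and the closest member to Bcl6 was Neil1 (r = 0.800, rank 474). For Gcsam, among 7068 genes, they were the chemokine gene Ccl6 (r = 0.918), the confinement receptor gene S1pr2 (0.907), the member Nuggc (0.907), the hepatic lipase gene Lipc (0.900) and the transcription factor gene Tox (0.896). Ccl6, Nuggc, Lipc and Tox averaged under 10 CPM in every group except knockout-labelled germinal centre B cells. They met the filter of 10 CPM over the 19 libraries only through that group. The ranking thus rests partly on the contrast with which the members were chosen. Neil1 ranked 20th for Gcsam (r = 0.859), Bcl6 had r = 0.628 with it, and Mef2c had r = −0.11. S1pr2 shared with Gcsam a level in knockout-labelled naive libraries, 6.50 to 14.9 CPM, above that in wild-type-labelled naive libraries, 0 to 0.0857 CPM. S1pr2 was picked by its correlation with Gcsam over libraries that include these naive ones. Nothing is therefore read from this shared pattern, which was not tested.

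Genes around the members were taken from 6 lists of known partners, targets and neighbours, and tested within the whole germinal centre table with limma on log2(CPM + 1). The lists were chosen with earlier results of these data known. Their counts and adjusted p-values therefore describe these genes and are no independent test. An adjusted p of 0.05 was passed by 13.6% of the genes, 8.54% higher and 5.09% lower in knockout-labelled libraries, and the median log2 fold change of all tested genes was 0.03. Without library 1, 2 or 3 labelled wild type the number called was 732, 603 or 712 in place of 1162, and without both libraries that stood apart it was 432. Of the 95 list entries that met the filter, counting a gene once, 37 passed, and 24 did without both libraries.

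Of 19 tested genes known as targets of BCL6 repression, 8 were lower in knockout-labelled libraries, 2 were higher and 9 did not pass, with a median of −1.49. Cd44, an adhesion receptor, averaged 176 CPM ± 50.3 in knockout-labelled libraries and 826 CPM ± 95.3 in wild-type-labelled ones (SD, n = 4 and 3, as below, log2 fold change −2.26, SE 0.23, limma adjusted p = 5.62e-04). The activation marker Cd69 was at −2.54 (SE 0.26, limma adjusted p = 5.84e-04), the follicle-positioning receptor gene Gpr183 at −2.68 (SE 0.28, limma adjusted p = 7.02e-04) and the cyclin gene Ccnd2 at −2.44 (SE 0.27, limma adjusted p = 8.93e-04). Each of these 4 passed under all 16 alternatives. Id2, an inhibitor of DNA binding named after its values were seen, was higher at 2.12. Without the 2 libraries 5 were lower and 2 higher.

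Corepressors that BCL6 recruits showed 2 of 7 tested genes higher and none lower, with a median of 1.16. Tbl1xr1 averaged 90.7 CPM ± 32.2 in knockout-labelled libraries and 31.5 CPM ± 0.609 in wild-type-labelled ones (log2 fold change 1.44, SE 0.32, limma adjusted p = 0.0180), and Mta3 68.5 CPM ± 38.7 in knockout-labelled libraries and 13.9 CPM ± 4.61 in wild-type-labelled ones (2.09, SE 0.52, limma adjusted p = 0.0287). Neither passed without both libraries, where the counts were 0 and 0, nor without any wild-type-labelled library in turn, and Mta3 also missed the threshold without knockout-labelled library 1 or 4. Among 18 regulators of germinal centre formation, 6 were higher, 2 lower and 10 did not pass, with a median of 0.82. Higher genes included the B lineage factor Ebf1 (log2 fold change 1.73, SE 0.19, limma adjusted p = 8.93e-04), Id3 (2.67, SE 0.39, limma adjusted p = 0.00263) and Spib (2.32, SE 0.37, limma adjusted p = 0.00379). Irf4, a factor of plasma cell differentiation that is also on the list of repressed genes, was lower (−2.51, SE 0.43, limma adjusted p = 0.00570), with an adjusted p of 0.0503 in limma without both libraries.

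Of 21 other tested genes of germinal centre B cells, 12 were higher, 1 was lower and 8 did not pass, with a median of 1.07, and 7 and 1 without both libraries. Rgs13, a regulator of G protein signalling, averaged 1079 CPM (725 to 1294 CPM, n = 4) in knockout-labelled libraries and was listed at 0 in all wild-type-labelled ones. S1pr2 was at 51.9 CPM ± 14.0 in knockout-labelled libraries and also listed at 0 in wild-type-labelled ones. Both genes met the 10 CPM filter only through the knockout-labelled group. Klhl6, a ubiquitin ligase adaptor gene, had 786 CPM ± 135 in knockout-labelled libraries and 97.7 CPM ± 30.1 in wild-type-labelled ones (log2 fold change 3.03, SE 0.24, limma adjusted p = 1.82e-04). The gene that was lower was Cd83, a light zone activation marker, at −1.50. Cd86 on the same list was higher at 2.01, and no change of light zone signal is read from Cd83 alone. Both genes were named after their values were seen.

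Of 18 tested genes of somatic mutation and base excision repair, the processes of Neil1 and Nuggc, 3 were higher, none was lower and 15 did not pass, with a median of −0.20. The glycosylase gene Mbd4 was among the higher ones (log2 fold change 2.47, SE 0.27, limma adjusted p = 7.72e-04) and passed under all 16 alternatives. Among 14 tested relatives and partners of the members, 2 were higher, 1 was lower and 11 did not pass, with a median of 0.48. The kinase genes Syk (2.82, SE 0.37, limma adjusted p = 0.00175) and Lyn (2.16, SE 0.44, limma adjusted p = 0.0128), whose products meet the Gcsam protein in B cell receptor signalling, were higher. Mef2a was lower (−1.74, SE 0.26, limma adjusted p = 0.00291). Lyn had an adjusted p of 0.0620 in limma without both libraries. In naive B cells no gene of the 6 lists passed.

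**Figure D3:**
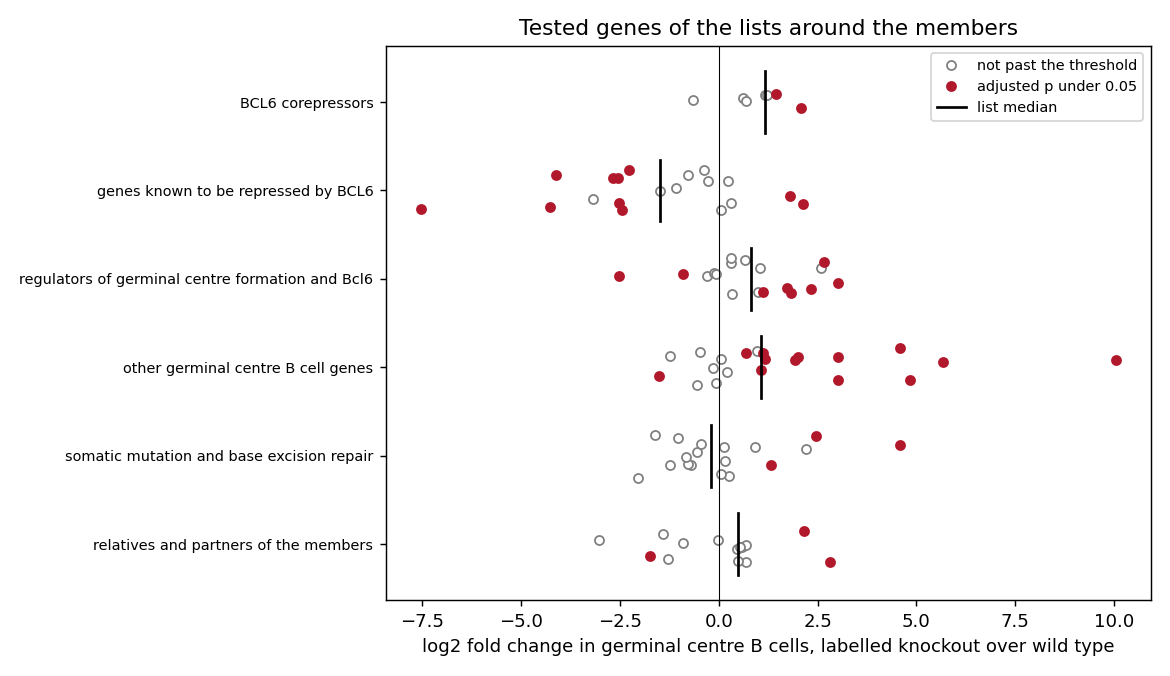
Log2 fold change of knockout-labelled over wild-type-labelled libraries in germinal centre B cells for each tested gene of the 6 lists, a row per list. Filled points passed an adjusted p of 0.05 in limma, open points did not, and the bar is the list median, from −1.49 for genes repressed by BCL6 to 1.16 for its corepressors.

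Marker sums of some other cell types also differed between the germinal centre groups, while others overlapped. The 14 T cell markers, all listed, summed to 1167 to 2404 CPM in knockout-labelled libraries and 56.9 to 98.0 CPM in wild-type-labelled ones, where 8 of the 14 were at 0 in every library (Cd3d, Cd3e, Cd3g, Cd4, Cd8a, Trbc2, Themis and Icos). Of these markers 11 were higher in every knockout-labelled library than in every one labelled wild type. Among the 8522 genes of at least 10 CPM in that table, 15.6% were higher in this way. The markers were counted without that filter, so the share is not an exact match. The 8 follicular helper T cell markers summed to 349 to 455 CPM in knockout-labelled libraries and 67.2 to 112 CPM in wild-type-labelled ones, with 6 at 0 in every wild-type-labelled library (Icos, Il21, Sh2d1a, Cd40lg, Tox2 and Maf). Cxcr5, among these 8, is also on the list of other germinal centre B cell genes. In naive B cells 6 of the 8 were listed, at 566 to 927 CPM in knockout-labelled libraries and 691 to 830 CPM in wild-type-labelled ones. The sum is thus not specific to these T cells. Follicular helper T cells also express Bcl6, and the gate of these libraries names no T cell marker. The part of T cell RNA in the Bcl6 difference was not tested.

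The 6 erythroid markers summed to 29.7 to 2977 CPM in knockout-labelled germinal centre libraries and 0.0510 to 2.41 CPM in wild-type-labelled ones, with 4 at 0 in every wild-type-labelled library (Hba-a1, Hbb-bs and Hbb-bt among them). Monocyte and macrophage markers, 12 of 12 listed, summed to 178 to 1977 CPM in knockout-labelled libraries and 90.3 to 236 CPM in wild-type-labelled ones and overlapped, with 9 at 0 in every wild-type-labelled library (Lyz2, Csf1r, C1qa, C1qb, C1qc, Cd14, Fcgr1 and Vcam1 among them). Endothelial and stromal markers, 2 of 5 listed, summed to 45.8 to 140.0 CPM in knockout-labelled libraries and 6.74 to 21.1 CPM in wild-type-labelled ones. Of these 2, Cdh5 was at 0 in every wild-type-labelled library and in 3 of the 4 knockout-labelled ones, with 4.83 CPM as its highest value. Neutrophil markers, 4 of 6 listed, overlapped at 0 to 221 CPM in knockout-labelled libraries and 0 to 0.601 CPM in wild-type-labelled ones, where S100a8, S100a9 and Ngp were at 0 throughout. Natural killer cell markers, 3 of 4 listed, overlapped at 0 to 17.2 CPM in knockout-labelled libraries and 8.74 to 10.1 CPM in wild-type-labelled ones, where Klrb1c and Gzma were at 0 throughout. The part of these cells in the members' differences was not tested.

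B lineage markers differed as well. The 5 B cell markers summed to 6120 to 6772 CPM in knockout-labelled germinal centre libraries and 3845 to 4720 CPM in wild-type-labelled ones, and none was at 0 throughout either group. The 5 naive B cell markers, Ighd, Fcer2a, Ccr7 and Cr2 among them, summed to 361 to 689 CPM in knockout-labelled libraries and 1718 to 2711 CPM in wild-type-labelled ones, against 7187 to 8178 CPM across the naive libraries. Fcer2a, which encodes the low-affinity IgE receptor CD23, made up most of the wild-type-labelled sum, at 43.0 to 82.1 CPM in knockout-labelled libraries and 1525 to 2439 CPM in wild-type-labelled ones. Without it, a step added after seeing the data, the other 4 summed to 318 to 607 CPM in knockout-labelled libraries and 157 to 272 CPM in wild-type-labelled ones, which reverses the direction. Of the 5 markers, 2 were higher and 2 lower in every knockout-labelled library than in every wild-type-labelled one, and 1 overlapped. Among the 8522 genes of at least 10 CPM, 15.6% were higher and 11.7% lower in this way. Nothing is read from these counts of markers. The complement receptor gene Cr2 was higher, at 153.7 to 293.9 CPM in knockout-labelled libraries and 9.21 to 23.6 CPM in wild-type-labelled ones. Ccr7 was lower, like Fcer2a, at 0 to 78.0 CPM in knockout-labelled libraries and 101.5 to 201.3 CPM in wild-type-labelled ones. The 6 markers of antibody-secreting cells overlapped, at 3762 to 11755 CPM in knockout-labelled libraries and 6741 to 10986 CPM in wild-type-labelled ones. Without Jchain, the most abundant of them, also left out after seeing the data, the other 5 summed to 928 to 1334 CPM in knockout-labelled libraries and 4670 to 6211 CPM in wild-type-labelled ones and did not overlap. In these bulk libraries fewer cells of a type and less RNA per cell cannot be told apart. With Bcl6 below the naive level, no Gcsam and no Rgs13, the wild-type-labelled libraries carried the CD95 transcript of their gate but not these defining transcripts of germinal centre B cells.

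**Figure D4:**
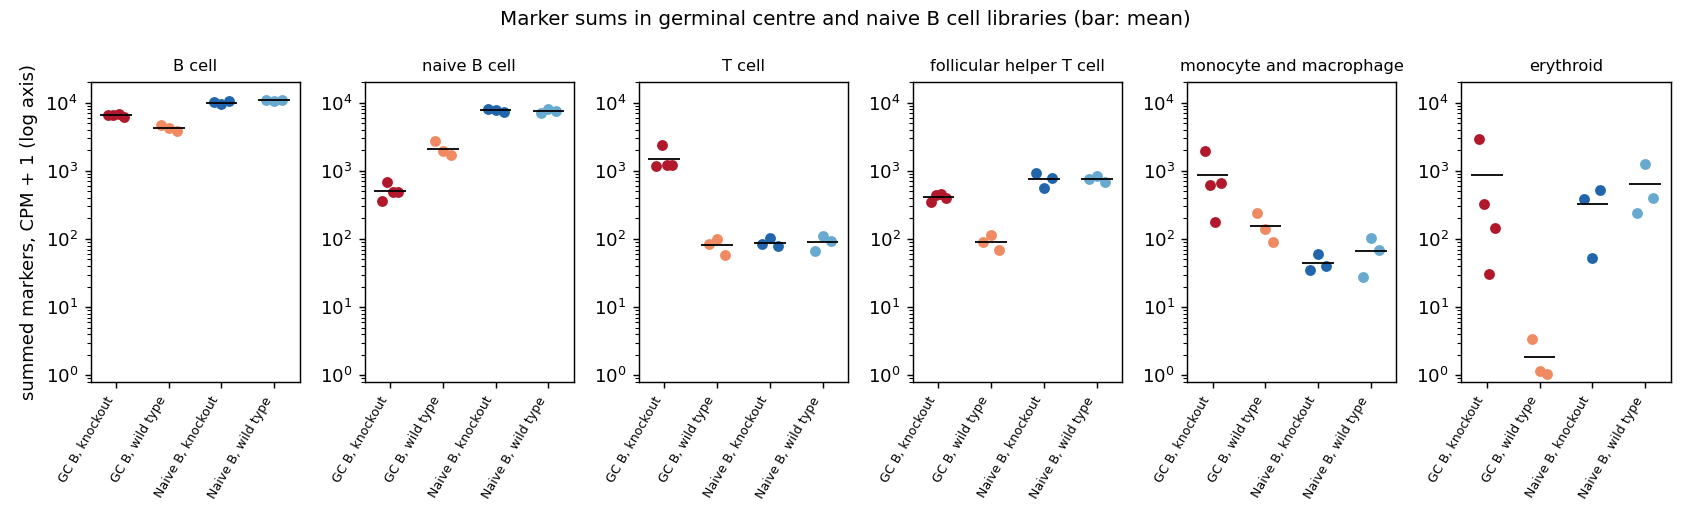
Summed CPM of 6 marker lists in germinal centre and naive B cell libraries, on a log axis after adding 1 CPM. Points are libraries and bars group means. T cell, follicular helper T cell and erythroid sums are higher in the 4 knockout-labelled germinal centre libraries than in the 3 labelled wild type. Naive B cell sums are lower in the knockout-labelled libraries only with Fcer2a included. The other 4 markers, not drawn alone, sum higher there, although Ccr7 among them is lower.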

How the data were processed

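The authors deposited RNA-seq values in CPM, in a table each for germinal centre, naive, spleen and marrow antibody-secreting cells, with columns summing to 1000000. STAR and mm10 are named, per the submitters' processing notes, without a version. Not given in the sources used here are the counter, its strand setting, the annotation and the filters. The 0.0001 added to every germinal centre value was subtracted, and 19 date-like gene names in each of the other tables were dropped. The most frequent value above 0 in each library was taken as the worth of 1 read and refined on values near whole reads. It gave the depth, 10.2 to 21.6 M (1 M is 1000000) reads. Some smaller values exist, so read numbers and depths are estimates. Below 1000 reads, 61.5% to 67.8% of germinal centre values and 85.2% to 88.8% of values elsewhere were whole to within 0.02 of a read, and no count test was used. A level of 3 reads per library, 0.139 to 0.293 CPM, was taken as the floor, which covers counting error only.

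Samples were grouped by their labels. Genes averaging at least 10 CPM were fitted with limma 3.58.1 (trend, R 4.3.3) on log2(CPM + 1), without covariates, within the germinal centre and naive tables separately. This scale understates changes of low genes. Calls were Benjamini-Hochberg adjusted p-values under 0.05 over all tested genes. The fit was tested on simulated data. Levels across tables are descriptions. P-values measure only the spread between these libraries, which may be technical. Intervals of the members in germinal centre B cells are given without a test. Python 3.11.15, SciPy 1.17.1, pandas 2.3.3 and matplotlib 3.10.9 gave the other values.

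The 8 members and the lists of partners, targets and markers were chosen with earlier results of these data known. Genes named in the text are the members, Pik3cg and up to 4 called genes of each list with the smallest adjusted p. Also named are the 5 protein-coding genes most correlated with Bcl6 and with Gcsam that averaged at least 10 CPM over the 19 libraries. Replicate numbers did not pair the libraries. Alternatives varied the pseudocount, filter, scaling, robust estimation, a replicate block and the libraries used. Some genes that this rule chose, and some list genes, are not reported here by name. Protein sequences were not used here.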

Additional observations from a re-analysis of the deposited data

How the results depend on the processing

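Every member kept its direction between the germinal centre groups under all 16 alternatives. The log2 fold change of Bcl6 was 4.55 with a pseudocount of 0.5, 2.68 with 5 and 3.74 without knockout-labelled library 1 and wild-type-labelled library 3 together. That of Gcsam was 9.68 and 6.37 with pseudocounts of 0.5 and 5, and Mybl1 and Nuggc were at 2.64 and 5.04 with 5. The number of genes called, 1162 (728 higher, 434 lower), ran from 603 to 1134 when each library was left out in turn. It was 732 without wild-type-labelled library 1, 603 without library 2 and 712 without library 3, and 432 (291 higher, 141 lower) without both libraries that stood apart. Genes called within the 6 lists, 37 (26 higher, 11 lower), ran from 29 to 40, and 24 (16 higher, 8 lower) without both. With 1 wild-type-labelled library fewer, 2 remained to carry the spread. Median-of-ratios scaling moved the median log2 fold change of all tested germinal centre genes to −0.08, in place of 0.03, and called 591 higher and 512 lower. Quantile normalization called 669 higher and 516 lower. A replicate block, for numbers whose deviations correlated at 0.079, 0.00057 and 0.0078, called 831 genes (496 higher, 335 lower) and 32 in the lists. In naive B cells limma called 0 genes under every alternative run. The naive fold changes of Bcl6, Gcsam, Mef2b, Mybl1 and Nuggc were refitted only under lower expression filters, being under 10 CPM. A level under 0.293 CPM cannot be told from 0 in the shallowest library.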
